A study of Mus musculus with 5 samples.

Results

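Whole lung of the 4D(+/+) mouse line was compared with whole lung of C57 mice on Affymetrix Mouse Genome 430 2.0 arrays, with 1 array on each side out of 5 arrays in the series. The 4D(+/+) line carries intact Pde4d and is the wild-type line kept beside a Pde4d knockout; per the labels it began on a C57BL/6 × 129/Ola background and was crossed back to C57BL/6J for at least 11 generations. C57 is C57BL/6J itself. All mice were female and naive, with no elastase treatment. Per the labels' protocols, RNA was made from 5 frozen lungs of each strain, the preparations of 3 lungs were picked after a quality check and pooled, and 0.3 µg of the pool was labelled for the array. The remaining arrays, used here only to place the values, were 4B(+/+), 4B(-/-) and 4D(-/-), the wild-type and knockout lines of the related Pde4b gene and the Pde4d knockout, with the same starting background and backcross. The sources used here give neither the age of the mice nor the conditions of dissection. Each strain is 1 pool on 1 array, so no difference below has a replicate check, no p-value can be had, and the spread between mice of one strain is unknown.

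The series concerns a compound that counters emphysema, and its title describes a search for genes at one level in 4D(+/+) and C57 but at another in the other lines. PDE4D and PDE4B are phosphodiesterases that break down cyclic AMP, a second messenger that relaxes smooth muscle, restrains inflammatory cells and switches on genes through protein kinase A and CREB. Lung tissue itself consists of alveolar type 1 cells, which form the gas exchange surface, type 2 cells, which make surfactant, airway club and ciliated cells, a dense endothelium, fibroblasts, smooth muscle and resident immune cells. Skeletal muscle, brown and white fat, the thyroid and parathyroid glands, the thymus, lymph nodes and the cartilage and lining of the trachea lie next to the lungs in the neck and chest.

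The files hold 1 intensity per probe set on a linear scale. A gene was counted when its brightest array reached an intensity of 64, which left 11500 of 18194 genes, and its difference is the log2 intensity in 4D(+/+) minus that in C57. At this setting 210 genes were at least 2-fold higher in 4D(+/+), 1.83% of all genes counted, and 21 were at least 2-fold lower, 0.183%. At 1.5-fold, the threshold used for the gene lists, 489 genes (4.25%) were higher and 143 (1.24%) were lower. Each list count below is to be read beside these shares. By contrast 8604 genes (74.8%) lay within 1.2-fold, among them 798 with exactly the same value on both arrays. The median difference over all genes was -0.00 on the log2 scale with an SD of 0.36 across genes, and the Pearson correlation of log2 intensity across genes, which are not independent, was 0.976. The median intensity over all probe sets was 46.6 in 4D(+/+) and 45.4 in C57, and the ratio of 3′ to 5′ probe sets, a sign of RNA integrity, was 1.83 in 4D(+/+) and 1.88 in C57 for Actb and 1.31 in 4D(+/+) and 1.72 in C57 for Gapdh.

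The 5 arrays together place the higher and the lower genes. Of the 210 genes at least 2-fold higher, 4D(+/+) had the highest value of all 5 arrays in 178 (84.8%, against 14.9% of all genes), and in 127 it exceeded each of the other arrays by at least 1.5-fold. In 132 of the 210 (62.9%, against 18.9% of all genes) C57 had the lowest value of the 5, and in 27 it lay at least 1.5-fold under each of the others. Over the 210 genes 4D(+/+) lay a median of 1.08 on the log2 scale above the median of the other 3 lines, and that median lay 0.53 above C57. Of the 21 genes at least 2-fold lower, C57 had the highest value of the 5 arrays in 19 (90.5%, against 26.0% of all genes), and in 17 it exceeded each of the others by at least 1.5-fold. In the same 21 genes the 4D(+/+) array was the lowest in 3. These shares use the 4D(+/+) and C57 values that chose the genes, so they describe the genes and are no test.

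Many of the higher genes were dim in C57: 83 of the 210 had an intensity under 64 there, where a fold is poorly determined. Such a gene among the 15 largest differences is 2310002L09Rik, known by its clone name, with 171 in 4D(+/+) and 17.1 in C57. The folds of the 210 genes were between 2 and 3 in 113, between 3 and 5 in 52, and 5 or more in 45. Of 36 higher genes with several probe sets above the floor, 30 had every probe set at least 1.5-fold higher and 0 had one at least 1.5-fold lower. Among the 21 lower genes 16 had folds between 2 and 3. Of 7 lower genes with several probe sets, 6 had every one at least 1.5-fold lower.

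**Figure D1:**
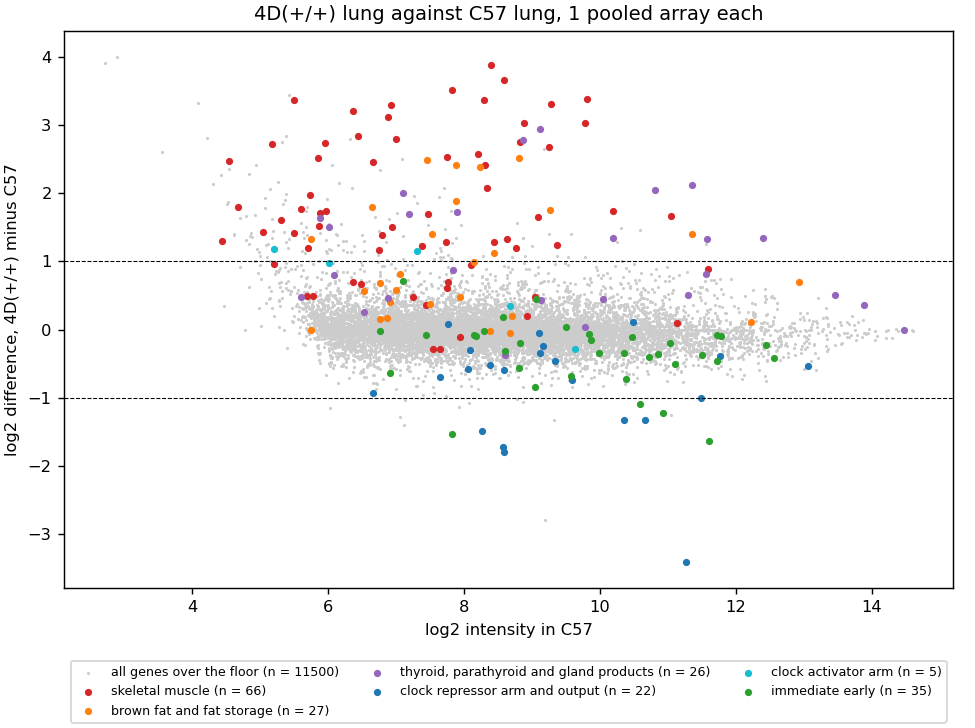
Each point is a gene, with its log2 intensity in C57 on the horizontal axis and its log2 difference, 4D(+/+) minus C57, on the vertical axis; dashed lines mark 2-fold. Coloured points are members of the muscle, fat, gland, clock and immediate early lists; muscle genes lie mostly above the upper dashed line and clock repressor and output genes mostly below 0.

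Fast skeletal muscle genes made up the largest block of higher genes in 4D(+/+) lung. All 27 counted genes of the fast sarcomere, the contractile unit of quick limb and trunk muscle, were at least 1.5-fold higher, against 4.25% of all genes, and 25 were at least 2-fold higher, with a median of 2.51 on the log2 scale. Every one of the 27 was highest in 4D(+/+) among the 5 arrays. The summed intensity of the list was 55959 in 4D(+/+) and 8530 in C57, and it lay between 8549 and 15466 in the remaining arrays. Bulk tissue cannot tell more cells of a type from more RNA per cell, here and in every group below.

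Mylpf, the regulatory light chain of fast myosin, had an intensity of 4979 in 4D(+/+) and 338 in C57, a 14.7-fold difference. Its values in 4B(+/+), 4B(-/-) and 4D(-/-) were 706, 372 and 678, so that 4D(+/+) alone was high. The fast troponin subunits, which make contraction depend on calcium, moved to a like extent. Tnni2, the inhibitory subunit, stood at 4853 in 4D(+/+) and 384 in C57. Tnnc2, the calcium-binding subunit, had 9432 in 4D(+/+) and 902 in C57. Tnnt3, which anchors the complex to tropomyosin, had 3242 in 4D(+/+) and 316 in C57. These 3 genes were 12.6-fold, 10.5-fold and 10.3-fold higher.

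Thick filament genes covered a wider range. Myh4, the heavy chain of the fastest fibres, read 3920 in 4D(+/+) and 612 in C57, and Myh1, the chain of an intermediate fast fibre, read 3901 in 4D(+/+) and 1172 in C57. The light chain Myl1 had 6157 in 4D(+/+) and 624 in C57, a 9.87-fold difference. Acta1, the actin of skeletal muscle thin filaments, had 7135 in 4D(+/+) and 878 in C57. Proteins of the Z-disc, where thin filaments are joined, were also high: Actn3 was 8.68-fold, Myoz1 9.79-fold and Myot 9.23-fold higher in 4D(+/+). Tmod4, a tropomodulin that caps thin filaments, had 467 in 4D(+/+) and 45.4 in C57, a level under the floor. The smallest differences on the list belonged to Lmod2, with 142 in 4D(+/+) and 89.3 in C57, and Ldb3, with 353 in 4D(+/+) and 218 in C57.

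Genes that store and release calcium in muscle followed the sarcomere, with 12 of 13 at least 1.5-fold higher and a median of 1.61. In 7 of the 13 C57 was under the floor, so another array brought them into the count and a low C57 value was in part built in. The median was 1.43 without the floor and 2.11 over the 6 genes where both arrays reached it. Pvalb, the calcium buffer of fast fibres, had 2580 in 4D(+/+) and 226 in C57, an 11.4-fold difference. Atp2a1, the calcium pump of the sarcoplasmic reticulum, had 1243 in 4D(+/+) and 215 in C57. Ryr1, the calcium release channel, had 167 in 4D(+/+) and 48.8 in C57, a level under the floor. Chrnb1, a subunit of the acetylcholine receptor at the nerve contact, was the exception at 154 in 4D(+/+) and 188 in C57.

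Of 16 genes of muscle energy supply, 12 were at least 1.5-fold higher, with a median of 1.43. Ckm, the creatine kinase that buffers ATP, had 3855 in 4D(+/+) and 473 in C57, which is 8.15-fold. Eno3, the enolase of muscle, had 3071 in 4D(+/+) and 456 in C57, and Mb, the oxygen store myoglobin, had 6694 in 4D(+/+) and 2115 in C57. The lowest member was Fbxo32, a ubiquitin ligase of wasting muscle, at 229 in 4D(+/+) and 246 in C57. Myf6, a transcription factor of muscle lineage, had 129 in 4D(+/+) and 23.4 in C57, a level under the floor. It was the only 1 of 3 counted myogenic factors at least 1.5-fold higher, and their median was 0.49.

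Slow and cardiac muscle genes did not share the size of the fast muscle difference. Of 7 genes of slow muscle 4 were at least 1.5-fold higher, with a median of 0.60, and 4D(+/+) was the highest array in 2 of them. Tnnt1, the slow troponin T, had 193 in 4D(+/+) and 58.8 in C57, while Myh7, the slow heavy chain, had 164 in 4D(+/+) and 200 in C57. Among 13 genes of heart muscle, which also sheathes the pulmonary veins of mice, 2 were at least 1.5-fold higher and the median was 0.39. Myl7, the atrial light chain, stood at 3880 in 4D(+/+) and 2875 in C57, and Myh6 at 2220 in 4D(+/+) and 2370 in C57. C57 had the lowest value of the 5 arrays in 11 of these 13 genes. The smooth muscle list, 16 genes of airway and vessel walls, had a median of 0.00 and 1 member at least 1.5-fold higher, the pericyte gene Rgs5, at 1196 in 4D(+/+) and 470 in C57.

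Brown fat genes, which serve heat production, were at least 1.5-fold higher in 5 of 9 cases, with a median of 1.33. Ucp1, the uncoupling protein that turns the mitochondrial gradient into heat, had 986 in 4D(+/+) and 176 in C57, a 5.59-fold difference. It had 792 in 4B(+/+), 251 in 4B(-/-) and 92.2 in 4D(-/-), so 4B(+/+) was nearly as high and 4D(-/-) was lower than C57. Cidea, a protein of the lipid droplet surface, had 1256 in 4D(+/+) and 237 in C57. Cox8b and Cox7a1, respiratory subunits of heat-producing fat and muscle, were 5.72-fold and 5.22-fold higher. Prdm16, a regulator of brown fat identity, had 331 in 4D(+/+) and 335 in C57.

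Genes of fat storage showed the same side in a milder form, with 10 of 18 at least 1.5-fold higher and a median of 0.69. Adipoq, the hormone adiponectin, stood at 2065 in 4D(+/+) and 615 in C57. Its values were 1952 in 4B(+/+), 1689 in 4B(-/-) and 468 in 4D(-/-), so 3 lines were high and C57 lay with 4D(-/-). Retn, the hormone resistin, had 877 in 4D(+/+) and 236 in C57. Fabp4, the fatty acid carrier of fat cells and capillaries, had 6939 in 4D(+/+) and 2634 in C57, and all 4 of its probe sets were at least 1.5-fold higher. Pparg, the master regulator of fat cells, was nearly level at 120 in 4D(+/+) and 109 in C57.

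Fatty acid synthesis, which in lung feeds surfactant lipids and in fat feeds stored triglyceride, was at least 1.5-fold higher in 9 of 14 genes. The median was 0.69. In 12 of the 14 genes 4D(+/+) was the highest of the 5 arrays. Thrsp, a nuclear protein that drives lipogenesis, had 3643 in 4D(+/+) and 580 in C57, which is 6.28-fold. Elovl6, which lengthens saturated fatty acids, had 767 in 4D(+/+) and 199 in C57. The core enzymes differed less: Fasn, fatty acid synthase, had 2984 in 4D(+/+) and 1805 in C57, and Acaca, which makes malonyl-CoA, had 594 in 4D(+/+) and 319 in C57. Scd2, a desaturase, ran the other way at 5076 in 4D(+/+) and 6667 in C57. The fat lists that accompany these genes had summed intensities that moved in the same direction, and their part in the enzymes' difference was not tested.

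Subunits of the mitochondrial respiratory chain gave a small difference on 1 side. All 28 counted genes were above 0, 12 were at least 1.5-fold higher, and the median was 0.50. Their range ran between 0.13 for Atp5a1, of the ATP synthase, and 0.84 for Ndufb8, of complex I. In 26 of the 28 genes 4D(+/+) was the highest of the 5 arrays. Ndufb8 had 4492 in 4D(+/+) and 2505 in C57, and Cox5b, of complex IV, had 8346 in 4D(+/+) and 5537 in C57, with all 4 probe sets at least 1.5-fold higher. The 28 genes were bright on both arrays, so the floor did not bear on them. Muscle and brown fat genes moved with this list, and their part in it was not tested.

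Cartilage genes were at least 1.5-fold higher in 11 of 17 cases with a median of 1.01. Here, however, C57 was the low array and 4D(+/+) was seldom the top one. In 11 of the 17 genes C57 was under the floor, so another array brought them into the count. That in part fixes a low place for C57. The median was 0.74 without the floor and 1.24 over the 6 genes where both arrays reached it. C57 had the lowest value of the 5 arrays in 15 of the 17, and 4D(+/+) had the highest in 1. Comp, a matrix protein of cartilage and tendon, had 366 in 4D(+/+) and 119 in C57, with 624 in 4B(+/+), 344 in 4B(-/-) and 314 in 4D(-/-). Col10a1, a collagen of mature cartilage cells, had 172 in 4D(+/+) and 51.4 in C57. Col2a1, the main cartilage collagen, had 35.0 in 4D(+/+) and 42.0 in C57, both under the floor, against 142 in 4B(+/+). Of 5 tendon and joint genes 3 were at least 1.5-fold higher, led by Tnmd, tenomodulin of tendon, at 354 in 4D(+/+) and 66.5 in C57.

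Keratins of stratified epithelium held the largest fold of the comparison. Krt13, the keratin of the upper layers of mucosa such as the esophagus, had 119 in 4D(+/+) and 7.45 in C57, a log2 difference of 4.00 that rests on a C57 value far below the floor. Its partner Krt4 had 466 in 4D(+/+) and 42.9 in C57, and 287 in 4D(-/-), so both Pde4d lines were high. Krt15, of basal epithelial cells, had 744 in 4D(+/+) and 224 in C57. Over the list 6 of 11 genes were at least 1.5-fold higher, with a median of 0.69, or 0.42 where both arrays had to reach the floor.

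Thyroid and parathyroid genes were high in more than 1 array. Tg, the thyroglobulin from which thyroid hormone is made, had 7717 in 4D(+/+) and 3065 in C57, with 4802 in 4B(+/+), 448 in 4B(-/-) and 1687 in 4D(-/-). Pth, parathyroid hormone, had 7455 in 4D(+/+) and 1799 in C57, with 4999 in 4B(+/+), 432 in 4B(-/-) and 2155 in 4D(-/-). No array was near 0 for these gland genes, C57 included, and 4B(-/-) was the lowest in both. Over the list 5 of 8 genes were at least 1.5-fold higher, with a median of 1.42, or 0.51 without the floor. Chga, a granule protein of endocrine cells, had 1372 in 4D(+/+) and 319 in C57.

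Secretory products of salivary and mucosal glands were at least 1.5-fold higher in 10 of 18 genes. Their median was 0.81, or 0.49 without the floor. Tff2, a trefoil peptide that protects mucus, had 4253 in 4D(+/+) and 554 in C57, a 7.68-fold difference. Dcpp3, a salivary product of mice, had 11362 in 4D(+/+) and 2623 in C57, and Lipf, gastric lipase, had 13730 in 4D(+/+) and 5390 in C57. Bpifa1, an airway defence protein, had 19574 in 4D(+/+) and 15155 in C57, and Lyz1, a lysozyme, had 22823 in both. These 2 genes lie near the top of the scale, where a difference could go unseen.

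Thymus genes ran at low intensity and C57 was under the floor in 7 of 8. Rag1, the recombinase subunit that assembles antigen receptors, had 98.1 in 4D(+/+) and 6.57 in C57, a 14.9-fold difference against a value near background. It reached 331 in 4B(-/-), above 4D(+/+), and 10.6 in 4D(-/-). Of the 8 genes 4 were at least 1.5-fold higher, and 4D(+/+) was the highest array in 0.

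**Figure D2:**
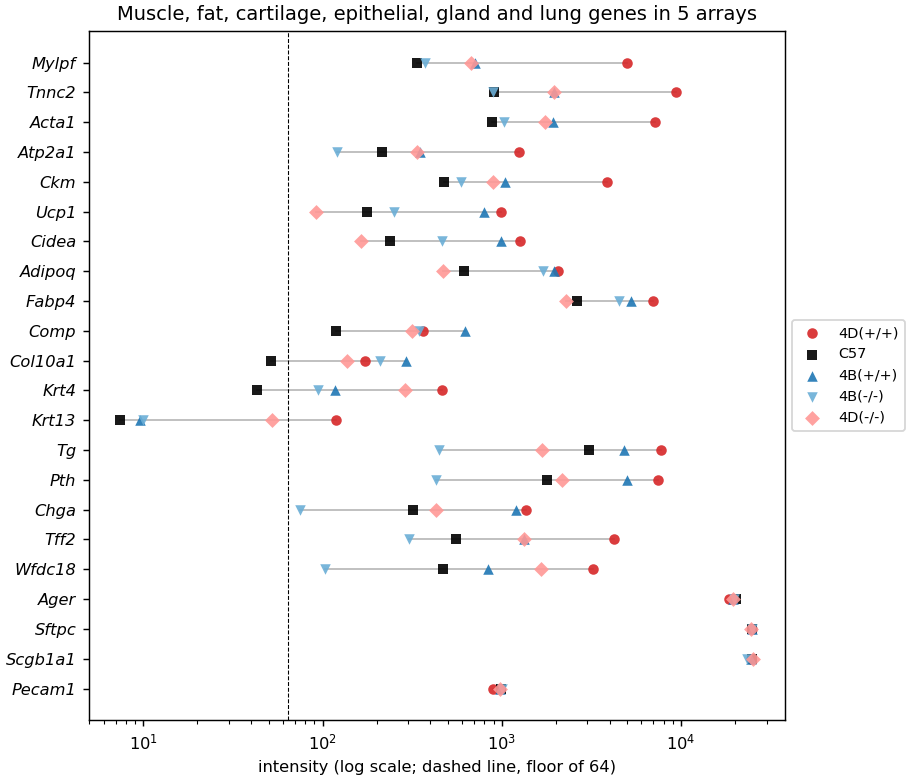
Intensity on a log scale of selected list members in the 5 arrays, with 4D(+/+) as red circles and C57 as black squares; the dashed line is the floor of 64. The 4D(+/+) circles are the rightmost for the muscle genes from Mylpf to Ckm, whereas the 5 arrays lie close together for the lung genes from Ager to Pecam1. Sftpc and Scgb1a1 are near the top of the scale, where a difference could go unseen.

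The circadian clock gave the largest differences toward lower values in 4D(+/+). In mammals BMAL1 (gene Arntl), with CLOCK or NPAS2, binds E-box sequences and drives the period, cryptochrome and REV-ERB genes, which repress the loop in turn, and the PAR bZIP factors DBP, TEF and HLF, which act on D-box sequences. Taken over both arms and the output genes, 11 of 27 clock genes were at least 1.5-fold lower and 3 were at least 1.5-fold higher, against 1.24% and 4.25% of all genes. The repressor and output genes were on the low side and the activator genes on the high side.

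Dbp had an intensity of 233 in 4D(+/+) and 2475 in C57, a 10.6-fold lower value and the largest on that side. It stood at 176 in 4B(+/+), 146 in 4B(-/-) and 247 in 4D(-/-), so C57 alone was high. Tef had 651 in 4D(+/+) and 1630 in C57, and Hlf had 116 in 4D(+/+) and 381 in C57. Each of the 3 factors had every probe set at least 1.5-fold lower. Tspan4, a membrane protein placed on the output list, had 525 in 4D(+/+) and 1316 in C57.

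In the repressor arm, 10 of 11 genes had their highest value in C57, and the median was -0.70. Per3 had 111 in 4D(+/+) and 385 in C57, a 3.45-fold lower value, and Per2 had 110 in 4D(+/+) and 307 in C57. Per1, which also responds to cyclic AMP and glucocorticoid, differed less at 462 in 4D(+/+) and 772 in C57. Nr1d2, the nuclear receptor REV-ERB beta, had 1436 in 4D(+/+) and 2868 in C57, and its relative Nr1d1 had 124 in 4D(+/+) and 201 in C57. Cry1 lay at 222 in 4D(+/+) and 274 in C57, short of 1.5-fold. Csnk1d, a kinase that marks period proteins for decay, was the member with no lower value, at 1559 in 4D(+/+) and 1441 in C57.

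Activator genes stood on the opposite side, with 3 of 5 at least 1.5-fold higher and a median of 0.98, or 0.54 where each gene was the median of its probe sets. Arntl had 356 in 4D(+/+) and 160 in C57, with 402 in 4B(+/+), 379 in 4B(-/-) and 320 in 4D(-/-). Npas2 had 84.2 in 4D(+/+) and 37.0 in C57. Nfil3, the repressor that competes with DBP at D-boxes and was listed with this arm, had 128 in 4D(+/+) and 64.9 in C57. C57 was the low array in all 3 of these genes. Clock itself had 525 in 4D(+/+) and 412 in C57, and Rora, an activator of Arntl, had 658 in 4D(+/+) and 797 in C57.

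Promoter sequences of clock genes are shown because the clock proteins act through known DNA words. The windows are from RefSeq on GRCm38.p6 and run 250 bases before to 50 after an annotated start. The E-box CACGTG, which reads the same on both strands, was in 1077 of 9281 genes with a window (11.6%). It was in 7 of 18 repressor and output genes and in 0 of 5 activator genes, but also in 7 of 26 immediate early genes. Genes with no window, Per2 among them, were not searched. Among genes at least 2-fold lower 4 of 17 held it (23.5%), and among those at least 2-fold higher 9 of 158 (5.70%). The 7 repressor and output genes with an E-box were Ciart, Cipc, Cry1, Lonrf3, Per1, Tef and Tspan4. Of these, Lonrf3 had 230 in 4D(+/+) and 218 in C57, so the word went with no lower value there. The D-box TTATGTAA, searched on both strands, was in 0.668% of genes and, among the clock genes, in Per3. A match is a description of these letters and not a binding site. Capitals mark the E-box in the windows of Tef, Tspan4 and Per1 and the D-box in that of Per3.
Tef, chr15:81802423-81802722, plus strand: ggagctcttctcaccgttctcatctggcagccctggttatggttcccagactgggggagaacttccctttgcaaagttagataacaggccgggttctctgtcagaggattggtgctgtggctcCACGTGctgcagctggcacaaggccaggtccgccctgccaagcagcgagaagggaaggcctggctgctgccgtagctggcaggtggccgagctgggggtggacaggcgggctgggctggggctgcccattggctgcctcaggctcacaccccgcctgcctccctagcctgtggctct
Tspan4, chr7:141476130-141476429, plus strand: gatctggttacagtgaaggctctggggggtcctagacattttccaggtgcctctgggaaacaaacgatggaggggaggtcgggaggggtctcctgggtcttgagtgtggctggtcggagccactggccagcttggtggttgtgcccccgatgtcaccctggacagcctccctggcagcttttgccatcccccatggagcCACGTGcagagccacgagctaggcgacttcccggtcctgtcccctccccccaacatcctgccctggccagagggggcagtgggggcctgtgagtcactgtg
Per1, chr11:69098699-69098998, plus strand: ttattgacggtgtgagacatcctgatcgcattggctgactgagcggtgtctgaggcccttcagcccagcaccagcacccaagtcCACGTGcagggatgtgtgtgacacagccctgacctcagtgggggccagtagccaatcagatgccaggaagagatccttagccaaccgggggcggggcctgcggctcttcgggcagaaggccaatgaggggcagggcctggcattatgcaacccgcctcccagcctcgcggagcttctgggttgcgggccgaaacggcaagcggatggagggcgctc
Per3, chr4:151044616-151044915, minus strand: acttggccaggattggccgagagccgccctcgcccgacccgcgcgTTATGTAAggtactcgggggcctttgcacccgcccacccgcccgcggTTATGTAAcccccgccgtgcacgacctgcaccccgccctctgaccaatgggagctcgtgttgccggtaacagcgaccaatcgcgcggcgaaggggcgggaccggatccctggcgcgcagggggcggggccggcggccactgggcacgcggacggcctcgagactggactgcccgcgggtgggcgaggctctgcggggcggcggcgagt

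The window of Per3 carries the D-box letters at 2 places, and its gene was 3.45-fold lower in 4D(+/+). Tef and Tspan4, each with 1 E-box in the window shown, were both 2.51-fold lower, and Per1, also with 1, was 1.67-fold lower. Neither Dbp nor Hlf held the E-box in its window, and Dbp had the largest difference toward lower values. Sequence outside the windows was not searched.

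**Figure D3:**
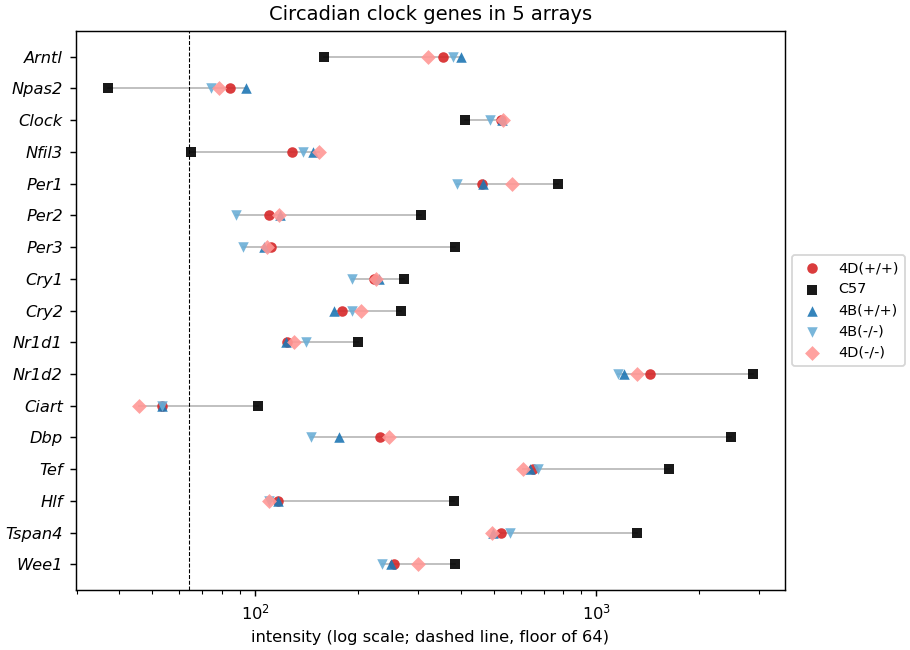
Intensity on a log scale of 17 clock genes in the 5 arrays, with 4D(+/+) as red circles and C57 as black squares. The C57 square is leftmost for Arntl, Npas2, Clock and Nfil3 and rightmost from Per1 to Wee1, while the 4D(+/+) circle lies close to the other lines.

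Cirbp, a cold-inducible RNA-binding protein whose level also cycles over the day, had 257 in 4D(+/+) and 639 in C57, and 265, 275 and 349 in 4B(+/+), 4B(-/-) and 4D(-/-). Other genes at least 2-fold lower outside the clock included Akr1c14, a steroid-converting reductase, at 888 in 4D(+/+) and 2111 in C57. Prdm8 had 54.6 in 4D(+/+) and 133 in C57, and Rbm46 had 29.6 in 4D(+/+) and 65.6 in C57, both close to the floor.

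Immediate early genes, which cells switch on within minutes of a stimulus, were lower on balance. Of 35 genes 8 were at least 1.5-fold lower and 1 was at least 1.5-fold higher, against 1.24% and 4.25% of all genes. The median was -0.32, or -0.20 where each gene was the median of its probe sets, and in 20 C57 was the highest array. Egr1, a zinc finger factor, had 1006 in 4D(+/+) and 3115 in C57, a 3.10-fold lower value. It had 815 in 4B(+/+), 541 in 4B(-/-) and 866 in 4D(-/-), so C57 again stood alone. Egr3, its relative, had 78.4 in 4D(+/+) and 227 in C57. The orphan receptor Nr4a1, a target of CREB, had 726 in 4D(+/+) and 1548 in C57, and Ccn1, a matrix signal, had 837 in 4D(+/+) and 1947 in C57. The probe sets of Ccn1 disagree: 2 of its 4 were at least 1.5-fold lower, and the range ran between -1.22 and 0.53 on the log2 scale.

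The family did not move as a block. Fos had 811 in 4D(+/+) and 1334 in C57, and Sik1, a kinase induced by cyclic AMP, had 296 in 4D(+/+) and 530 in C57. Junb was nearly level at 165 in 4D(+/+) and 175 in C57, and so were Atf3, at 274 in 4D(+/+) and 291 in C57, and Myc, at 108 in 4D(+/+) and 109 in C57. Crem, a modulator of cyclic AMP response, was the only member at least 1.5-fold higher, with 225 in 4D(+/+) and 138 in C57. The cyclic AMP response element TGACGTCA lay in the window of 3 of 26 immediate early genes, against 3.36% of all genes, namely Btg2, Dusp1 and Maff, which were all within 1.5-fold.

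Chaperones of the cytosol and mitochondria, which fold proteins and are induced by heat shock factor, were at least 1.5-fold higher in 12 of 23 genes. Of the 23, 0 were at least 1.5-fold lower, and the median was 0.60. C57 was the lowest of the 5 arrays in 19 of the 23, and 4D(+/+) was the highest in 6. Hsph1, a nucleotide exchange factor for HSP70, had 1617 in 4D(+/+) and 610 in C57, and 1950, 1853 and 1348 in 4B(+/+), 4B(-/-) and 4D(-/-). Hspe1, the lid of the mitochondrial chaperonin, had 2588 in 4D(+/+) and 1285 in C57. The inducible HSP70 gene Hspa1b had 3853 in 4D(+/+) and 2036 in C57, and its near-identical copy Hspa1a, whose probes may share signal, had 948 in 4D(+/+) and 578 in C57. Some other members differed little, as with Hspa8 at 11241 in 4D(+/+) and 10013 in C57 and Hsp90aa1 at 5830 in 4D(+/+) and 5436 in C57. Cryab, a small heat shock protein abundant in muscle, had 4386 in 4D(+/+) and 5134 in C57.

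The heat shock element GAANNTTC, searched on both strands, was in the window of 11 of 20 chaperones of the cytosol and mitochondria and in 6.82% of all genes. The near-identical Hspa1a and Hspa1b were counted separately among the 11. A longer form, in which NNGAA follows those letters, contains the shorter one and was in 4 of 20 chaperones and 0.539% of all genes. Chordc1, Hspd1, Hspe1 and Hsph1 held it, and their folds were 1.69, 1.43, 2.01 and 2.65. The windows of Hsph1, Chordc1 and Hspe1 are shown because these genes carry the most complete element, in capitals; the window of Hsph1 also holds an E-box, left in lower case.
Hsph1, chr5:149636287-149636586, minus strand: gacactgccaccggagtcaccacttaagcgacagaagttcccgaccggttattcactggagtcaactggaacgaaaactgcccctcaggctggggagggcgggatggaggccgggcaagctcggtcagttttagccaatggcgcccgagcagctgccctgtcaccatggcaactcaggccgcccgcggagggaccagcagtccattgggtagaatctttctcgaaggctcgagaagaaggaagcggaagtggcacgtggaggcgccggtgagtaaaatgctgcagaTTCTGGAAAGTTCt
Chordc1, chr9:18292017-18292316, plus strand: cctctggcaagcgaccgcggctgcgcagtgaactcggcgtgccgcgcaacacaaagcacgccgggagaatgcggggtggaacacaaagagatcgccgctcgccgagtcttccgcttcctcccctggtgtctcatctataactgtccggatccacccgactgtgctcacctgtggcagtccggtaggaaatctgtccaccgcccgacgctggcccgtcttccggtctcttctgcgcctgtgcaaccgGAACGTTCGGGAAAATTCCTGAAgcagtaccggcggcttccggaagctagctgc
Hspe1, chr1:55087898-55088197, plus strand: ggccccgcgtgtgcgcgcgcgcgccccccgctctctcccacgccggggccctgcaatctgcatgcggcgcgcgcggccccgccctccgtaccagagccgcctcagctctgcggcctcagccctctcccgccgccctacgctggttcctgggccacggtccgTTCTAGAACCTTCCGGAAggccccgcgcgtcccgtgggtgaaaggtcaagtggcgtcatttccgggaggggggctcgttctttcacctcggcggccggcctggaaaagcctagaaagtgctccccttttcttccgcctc

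Chaperones of the endoplasmic reticulum were at least 1.5-fold higher in 3 of 18 genes, against 4.25% of all genes, and lower in 0, with a median of 0.17. Sdf2l1 had 657 in 4D(+/+) and 310 in C57, Manf had 1868 in 4D(+/+) and 986 in C57, and Creld2 had 760 in 4D(+/+) and 470 in C57. These genes serve secretory protein folding. Hsp90b1, the resident HSP90, had 4704 in 4D(+/+) and 4768 in C57.

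B-cell genes were at least 1.5-fold lower in 9 of 18 cases and below 0 in 17. None was at least 1.5-fold higher, and the median was -0.58. Fcmr, the receptor for IgM, had 129 in 4D(+/+) and 271 in C57, a 2.10-fold lower value. Ms4a1, the surface protein CD20, had 371 in 4D(+/+) and 585 in C57, and Cd22, an inhibitory receptor, had 143 in 4D(+/+) and 226 in C57. In 13 of the 18 genes C57 was the highest array, with 4D(-/-) near it and both 4B arrays near 4D(+/+). Ms4a1 for example had 365, 340 and 494 in 4B(+/+), 4B(-/-) and 4D(-/-). Ighm, the heavy chain of IgM, did not follow: it had 3082 in 4D(+/+) and 2414 in C57, and 2 of its 5 probe sets were at least 1.5-fold lower.

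Genes of plasma cells and their antibodies were mixed, with 3 of 9 at least 1.5-fold higher, 0 at least 1.5-fold lower, 5 above 0 and 4 below. The median was 0.10, or -0.08 without probe sets ending _x_at, _s_at or _a_at. Igha, the IgA heavy chain, had 3556 in 4D(+/+) and 1270 in C57, with 3520, 2959 and 4114 in 4B(+/+), 4B(-/-) and 4D(-/-), so C57 was the low array. Jchain, which joins IgA units, had 1199 in 4D(+/+) and 470 in C57. Sdc1, a surface proteoglycan of plasma cells and of epithelium, was the lowest member at 1703 in 4D(+/+) and 2454 in C57. H2-Ob, which tunes peptide loading of MHC class II in B cells, had 110 in 4D(+/+) and 243 in C57, but the class II chains themselves were level, as with H2-Aa at 6475 in 4D(+/+) and 6898 in C57. Glycam1, the mucin of lymph node venules, had 85.2 in 4D(+/+) and 588 in C57, a 6.91-fold lower value, and 1116 in 4D(-/-) against 16.4 in 4B(-/-). It was the only gene of the 3 venule and node genes counted that was 2-fold apart.

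T-cell genes showed no member at 1.5-fold in 10, with a median of -0.22. Cd3e, of the receptor complex, had 106 in 4D(+/+) and 123 in C57. Neutrophil genes were at least 1.5-fold higher in 4 of 11 and lower in 1, against 4.25% and 1.24% of all genes. In 3 of the 11 C57 was under the floor, so a low C57 value was in part built in. The neutrophil median was 0.44, but 0.18 without the floor and 0.04 over the 8 genes where both arrays reached it. S100a8 had 2508 in 4D(+/+) and 1343 in C57, and Lcn2 had 692 in 4D(+/+) and 1067 in C57. Ltf, lactoferrin of neutrophil granules and of glands, had 7272 in 4D(+/+) and 3038 in C57. Cxcl5, an epithelial chemokine for neutrophils, had 130 in 4D(+/+) and 18.7 in C57, with 593 in 4B(+/+). Alveolar macrophage genes were less than 1.5-fold apart except for Mmp12, the macrophage elastase, at 52.3 in 4D(+/+) and 138 in C57, and Marco, a scavenger receptor, at 95.5 in 4D(+/+) and 146 in C57.

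**Figure D4:**
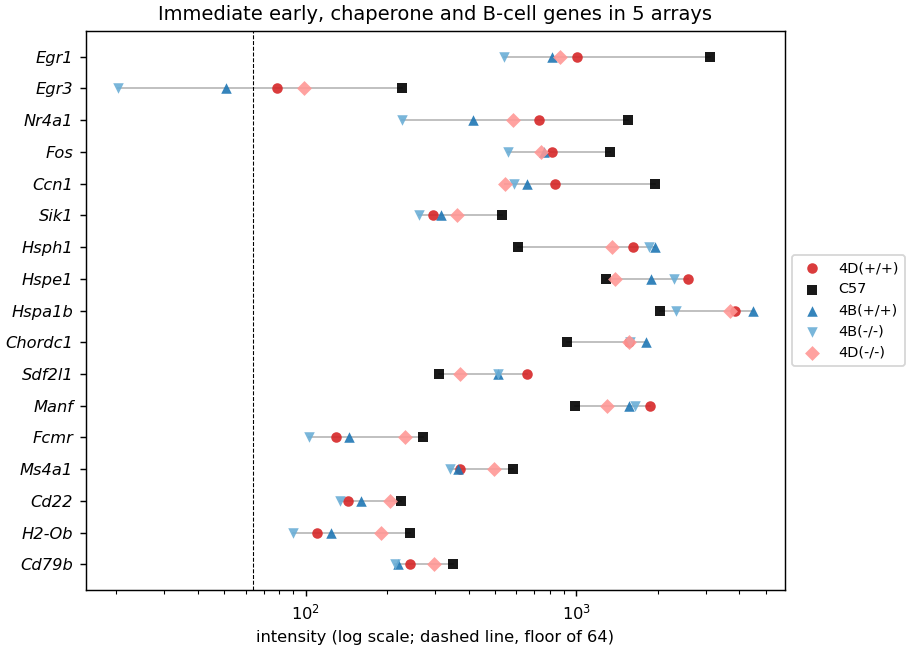
Intensity on a log scale of immediate early, chaperone and B-cell genes in the 5 arrays, with 4D(+/+) as red circles and C57 as black squares. The C57 square is rightmost for the immediate early genes and for the B-cell genes and leftmost for the chaperones.

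Genes that define lung cells differed little. None of 14 alveolar type 2 genes and none of 16 club cell genes passed 1.5-fold. Sftpc, a surfactant protein of type 2 cells, had 24791 in both arrays, close to the highest value on either, 24791 in 4D(+/+) and 24948 in C57. At that brightness a difference could go unseen. Sftpb, a dimmer surfactant gene, had 2501 in 4D(+/+) and 2984 in C57. Scgb1a1, the club cell secretoglobin, had 24573 in 4D(+/+) and 24948 in C57. Among 21 genes of ciliated cells 1 was at least 1.5-fold apart, Mlf1, at 589 in 4D(+/+) and 334 in C57.

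Alveolar type 1 genes leaned to the low side, with 14 of 15 below 0, a median of -0.30 and 2 at least 1.5-fold lower. Lmo7, of cell junctions, had 1408 in 4D(+/+) and 2400 in C57, and Akap5, an anchor for protein kinase A, had 911 in 4D(+/+) and 1490 in C57. Ager, the receptor that marks type 1 cells, had 18484 in 4D(+/+) and 20143 in C57. In 10 of the 15 genes 4D(+/+) was the lowest array. Endothelial genes had a median of -0.19 with 1 of 22 at least 1.5-fold lower, Aplnr, the apelin receptor, at 1537 in 4D(+/+) and 2341 in C57. Cdh5, the cadherin of endothelial junctions, had 2217 in 4D(+/+) and 2744 in C57. The endothelial median against C57 was nearly the same in 4B(+/+), at -0.20, and in 4B(-/-), also at -0.20, and it was -0.07 in 4D(-/-); C57 was the highest array in 13 of the 22 genes. The summed fast muscle intensity was 8549 in 4B(-/-) and 8530 in C57. Sums of other tissue lists differed between these arrays in both directions. Cartilage had 6642 in 4B(-/-) and 2473 in C57, and thyroid and parathyroid had 1588 in 4B(-/-) and 5844 in C57. The part of other tissues in the endothelial medians was not tested. The type 1 median against C57 was -0.17 in 4B(+/+), -0.10 in 4B(-/-) and -0.04 in 4D(-/-).

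Matrix genes, which matter to emphysema because lost elastin opens the air spaces, stayed level. No gene of 19 lung collagens and of 15 elastic fibre genes passed 1.5-fold. Eln, elastin itself, had 393 in 4D(+/+) and 403 in C57, with 754 in 4D(-/-), and Col3a1 had 6086 in both. Lox, which crosslinks elastin and collagen, had 588 in 4D(+/+) and 452 in C57.

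**Figure D5:**
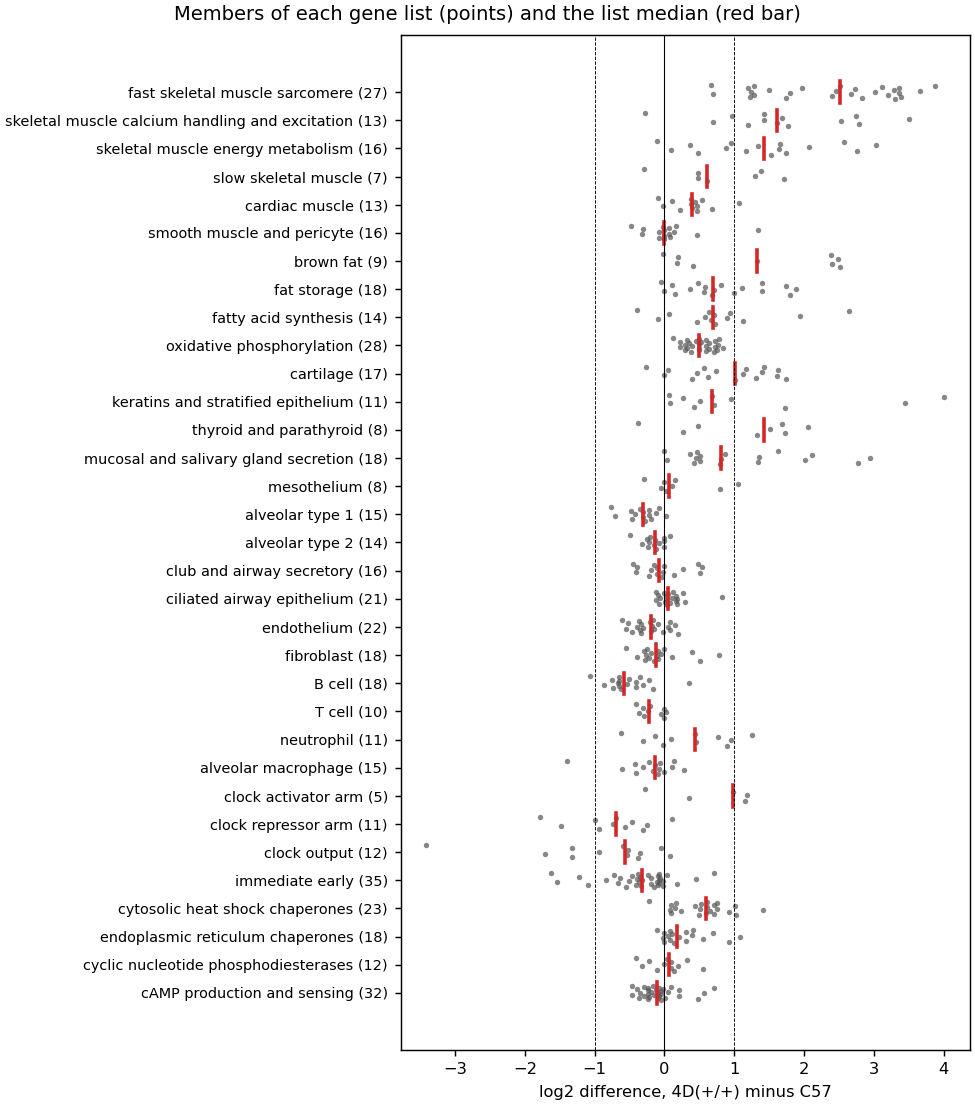
Log2 difference, 4D(+/+) minus C57, of every counted member (points) of 33 gene lists, with the list median as a red bar, dashed lines at 2-fold and the number of genes in brackets. The muscle, fat, cartilage and gland lists lie to the right, the clock repressor, output and B-cell lists to the left, and the lung cell lists near 0.

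Pde4d had 523 in 4D(+/+) and 456 in C57, a 1.15-fold difference, and 386 in 4D(-/-). Pde4b had 467 in 4D(+/+) and 438 in C57. None of 12 counted cyclic nucleotide phosphodiesterases passed 1.5-fold, with Pde3b, an insulin-regulated enzyme of fat, closest at 581 in 4D(+/+) and 398 in C57. Pde9a, which is specific for cyclic GMP, was furthest to the low side at 167 in 4D(+/+) and 222 in C57. Of 32 genes that make or sense cyclic AMP only Crem passed 1.5-fold, and the median was -0.11. Prkar2b, a regulatory subunit of protein kinase A found in fat, had 421 in 4D(+/+) and 285 in C57, and Calcrl, a receptor that raises cyclic AMP in endothelium, had 6422 in 4D(+/+) and 8821 in C57. Pde4dip, a scaffold that binds phosphodiesterase and is abundant in muscle, was not on a list and was picked after its values were seen; it had 517 in 4D(+/+) and 178 in C57, with 2 of 3 probe sets at least 1.5-fold higher.

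Genes beside Pde4d on chromosome 13 were listed because the line was bred from a C57BL/6 × 129/Ola stock beside the Pde4d knockout. Of the 40 nearest counted genes, 20 on each side, 28 were within 1.2-fold, against 74.8% of all genes. At least 1.5-fold higher were 2 and at least 1.5-fold lower were 2, against 4.25% and 1.24% of all genes. The median was -0.06. With so few genes these counts do not set the region apart from all genes. Hspb3, a small heat shock protein of muscle, had 85.0 in 4D(+/+) and 23.2 in C57, and Ndufs4, of complex I, had 887 in 4D(+/+) and 480 in C57. Erbin, a scaffold of cell junctions, had 1389 in 4D(+/+) and 2177 in C57, and Plk2, a stress-induced kinase, had 655 in 4D(+/+) and 1015 in C57. Ndufs4 and Erbin had 3 probe sets each, and in both only 1 passed 1.5-fold. The log2 range ran between 0.31 and 0.89 for Ndufs4 and between -0.65 and 0 for Erbin. Nnt, the mitochondrial transhydrogenase that is deleted in part in C57BL/6J, was not among the 40 genes. It had 569 in 4D(+/+) and 509 in C57, with 1212 in 4D(-/-). The neighbours of Pde4b, on another chromosome, served as a comparison: 26 of 40 were within 1.2-fold and 1 was at least 1.5-fold higher.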

How the data were processed

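The authors deposited 1 linear intensity per probe set and array, made with RMA per the submitters' processing notes; RMA corrects background, equalises arrays and summarises probes. The sources used here give neither its version and settings nor the build behind the probe sets. From the 45101 probe sets, those with 1 gene symbol in the platform annotation (34958; 932 had several and 9211 none) were used. Each gene took the probe set whose mean over the 5 arrays was highest, and was counted when the brightest array reached log2 6. Differences are log2 intensities, 4D(+/+) minus C57, with no further normalization. A gene was called at 2-fold; lists were counted at 1.5-fold. With 1 array per group no test was run; precision is limited by the number of arrays. The 62 gene lists (1066 symbols, 974 measured, 791 over the floor) and the comparison were chosen with earlier results of these data known. The 15 largest genes each way are all named. Further genes were taken from the 6 largest members of a list, from any members of the clock, immediate early, chaperone, muscle, fat, B-cell and phosphodiesterase lists, and from the 5 largest Pde4d neighbours, and not every gene so allowed is named; which of these, and the lung cell and matrix members and other examples, was chosen after values were seen. The longer heat shock element was likewise a later addition. The counting was tested on simulated data. Python 3.11.15, pandas 2.3.3, R 4.3.3 and limma 3.58.1 (alternative normalizations) were used.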

Additional observations from a re-analysis of the deposited data

How the results depend on the processing

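No paired analysis was possible because each strain has 1 array. The count of genes at least 2-fold higher in 4D(+/+) was 127 when both arrays had to reach log2 6, and 97 at a 3-fold threshold, against 210. The count at least 2-fold lower was 13 when a gene was the median of its probe sets, and 5 at 3-fold, against 21. With no floor 14302 genes were within 1.2-fold, against 8604, because more genes were counted. In the other alternatives run the higher count lay between 170 and 260 and the lower count between 17 and 24. Of 620 values of list medians (62 lists under 10 alternatives) 530 stayed within 0.1 on the log2 scale and 90 moved by more; quantile normalization, cyclic loess and centring moved none. The sign turned in 11 values of 8 lists, each with a median no further than 0.13 from 0 as reported; for plasma cell genes it was -0.08 without _x_at, _s_at and _a_at probe sets, and for cell division genes 0.05, against -0.06. Dim genes limit the folds, since 83 higher genes were under the floor in C57, and the brightest lung genes lie near the top of the scale.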

Other observations

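Glucocorticoid-responsive genes, which corticosteroid hormone raises in lung, split in 4D(+/+) with 4 of 18 at least 1.5-fold higher and 4 at least 1.5-fold lower. The shares of all genes were 4.25% and 1.24%, and the list median was -0.26. Pdk4, which spares glucose in fasting, had 736 in 4D(+/+) and 387 in C57, and the metallothioneins Mt2 and Mt1, which bind zinc and copper, stood at 1028 and 2429 in 4D(+/+) against 543 and 1614 in C57. Zbtb16, a transcription factor, was lower at 225 in 4D(+/+) and 470 in C57, yet it had 592, 1118 and 619 in 4B(+/+), 4B(-/-) and 4D(-/-), so 4D(+/+) was the low array rather than C57 the high one. Cdkn1a, an inhibitor of the cell cycle, had 1145 in 4D(+/+) and 731 in C57 but 1918 to 2203 in the remaining arrays. These genes and those below were chosen after their values were seen.

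Genes of xenobiotic metabolism had a median of -0.06 over 24 genes, with 2 at least 1.5-fold higher and 2 at least 1.5-fold lower. Against 4.25% and 1.24% of all genes, these are few genes. Gstm5, a glutathione transferase, had 543 in 4D(+/+) and 323 in C57, and Aldh3a1, an aldehyde dehydrogenase, had 361 in 4D(+/+) and 232 in C57. Fmo2, the flavin monooxygenase of lung, had 3332 in 4D(+/+) and 5589 in C57, with all 4 probe sets at least 1.5-fold lower, and Sult1a1, a sulfotransferase, had 728 in 4D(+/+) and 1155 in C57. Of 18 antioxidant genes 2 were at least 1.5-fold higher, Mt2 and Mt1 named above, and 1 was at least 1.5-fold lower. That gene, Cat, the catalase of peroxisomes, had 2821 in 4D(+/+) and 4475 in C57. Interferon-stimulated genes were level, with a median of 0.00 over 18 genes. Of 19 cell division genes 0 passed 1.5-fold, and Mki67, a marker of cycling cells, had 185 in 4D(+/+) and 192 in C57. Col2a1 and Col9a1, both collagens of cartilage, were within 1.2-fold or close to it between 4D(+/+) and C57 and higher in the other lines: Col9a1 had 40.2 in 4D(+/+) and 38.9 in C57, with 119, 66.2 and 76.2 in 4B(+/+), 4B(-/-) and 4D(-/-). All these comparisons share the C57 array.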
